A study of Mus musculus with 18 samples.

Results

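The 6 genes described here are Id1, Id2, Id3, Smad6, Smad7 and Atoh8, which respond to bone morphogenetic proteins (BMPs) in many cell types. They were chosen by symbol, with earlier results of these data known. Each had 1 row in a count table of 25957 genes, and all 6 were among the 10075 genes with enough counts to be tested. Their mRNA was measured by BRB-seq in the mouse myoblast line C2C12. This method barcodes the cDNA of each sample before pooling and reads mainly the 3′ ends of mRNAs. There were 18 libraries in 6 groups of 3.

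All cells were C2C12 myoblasts grown with 20% fetal bovine serum, with no genetic change named, and no added BMP named for any group. Control cells were lysed in the dish and scraped. Cells of the other groups were first washed with PBS. Of these, 3 groups stood at 37 °C under 200 µL of 0.25% trypsin, for a time of 30 s, of 3 min or of 30 min. For low trypsin, the same solution was taken off at once and the dish was left at 37 °C for 3 min. In the cold protease group, cells were shaken for 5 min at 4 °C with a protease that works in the cold. Control cells thus differed from treated cells in wash, incubation and harvest as well as in enzyme. The libraries of a group carried lot numbers 1 to 3 and are called replicates. The sources used here do not say what a lot is, so the p-values speak only of the spread among these 18 samples, and that spread may be technical.

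BMPs are secreted ligands that bind paired serine/threonine kinase receptors, which phosphorylate Smad1, Smad5 and Smad9. These join Smad4, enter the nucleus and switch on target genes, Id1, Id2 and Id3 being among the most direct. Id proteins are helix-loop-helix factors without a DNA-binding region. They hold E proteins such as Tcf3 in inactive pairs and so keep MyoD from driving muscle genes, and in C2C12 cells BMPs block muscle differentiation and favour an osteoblast programme. Smad6 and Smad7 are inhibitory Smads that feed back on the receptors, Smad6 mainly on BMP signalling and Smad7 on TGF-β signalling too. Atoh8 is a basic helix-loop-helix factor of the atonal family and a further Smad target.

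Short stretches of the RefSeq promoter windows are shown for the members that a window was matched for, because they carry the elements through which Smads, E-box factors or the general transcription machinery are known to bind. A window held 250 bases before and 50 after the RefSeq transcript start on GRCm38.p6, and 4 of the 6 members were matched (Id2, Id3, Smad6 and Atoh8). The bases in capitals are a TATA element in Id3, a GC-rich Smad element in Id2, the Smad-binding palindrome in Smad6 and E boxes in Atoh8. The Smad6 stretch also holds an E box, catatg, left in lower case. The E box of Id2 lies outside the stretch shown.
Id3, chr4:136143780-136143809, plus strand: ctagagaggactcTATAAgagtcggccgct
Id2, chr12:25096306-25096335, minus strand: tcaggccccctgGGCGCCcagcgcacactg
Smad6, chr9:64022045-64022074, minus strand: gccgccaaagtGTCTAGACtggcatatgat
Atoh8, distal, chr6:72235790-72235819, minus strand: gcgattagcagcCACGTGctcgggactgta
Atoh8, proximal, chr6:72235619-72235648, minus strand: cggccctcagccCAGCTGttttgaaaaatg

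The motifs were searched on both strands. The palindrome GTCTAGAC was present in 1 of the 4 windows, that of Smad6, where it began 4 bases before the transcript start, and in 0.213% of all 32851 windows of 300 bases. It contains the shorter Smad box GTCT, which was in the windows of Id2, Id3 and Smad6 but also in 88% of all windows. GGCGCC was in the Id2 window, 231 bases before the start, and in 11.9% of all windows. TATAA was in the Id3 window alone among the 4, 29 bases before the start, and in 24.9% of all windows. E boxes (CANNTG) were matched 2 times in Atoh8, 1 time each in Id2 and Smad6 and in no place in Id3, against 72.3% of all windows with a match. The motif TGACGTCA was in none of the 4 and in 1.79% of all windows. The GC box GGGCGG was in all 4 and in 35.7% of all windows. CCAAT was in the windows of Id2 and Smad6 and in 37.4% of all windows. CACNAG, an N box bound by Hes factors, was in those of Id2 and Atoh8 and in 42.5% of all windows. These matches are descriptions of the letters in the window and no test of binding.

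Total counts ranged from 1490869 to 2480690 per library, and the groups overlapped in depth except that 3 min, at 1490869 to 1778662, lay below 30 s and low trypsin, and 30 min, at 1608020 to 1884759, below low trypsin. Of 8 myoblast markers 6 were tested, among them Des at 882 and Myod1 at 58.2 CPM, while Pax7 was at 0.633 and Msc at 1.29. The marker values in this paragraph are counts scaled to library totals alone, without TMM factors. In later paragraphs CPM are counts scaled to library size with TMM factors. The summed myoblast markers were at 1280 to 1440 CPM in control, 1280 to 1320 in low trypsin and 1400 to 1490 in cold protease. The 30 s libraries had 1440 to 1510 CPM, those of 3 min 1500 to 1530 and those of 30 min 1470 to 1540. On the scale of library totals, all libraries of 3 min and 30 min were thus above control. TMM-scaled sums were not computed. The TMM factors were 0.974 to 0.99 in control, 1.01 to 1.03 after 3 min and 0.99 to 1.02 after 30 min. The separation may thus not hold on the TMM scale. Summed markers of differentiated muscle were at 246 to 273 CPM in control and 162 to 222 in the treated libraries, without overlap. The 6 endothelial markers summed to at most 2.08 CPM, the macrophage markers, with Cd68 at 2.71 as the highest, to at most 7.31. Of osteoblast markers, which BMP treatment brings up in this line, Runx2 was at 70.7 CPM and Phex at 7.5, and Alpl, Sp7, Ibsp and Dlx5 had at most 2 counts in any library. The sum of all osteoblast markers came nearly all from Runx2, with Phex next. It was at 66.3 to 83.2 CPM in control, 72 to 77.3 in low trypsin and 74.2 to 81.7 in cold protease. The 30 s libraries had 60.8 to 78.7 CPM, those of 3 min 78.1 to 91.2 and those of 30 min 83.2 to 103. Krt14 made up nearly all of the epithelial sum (174 to 244 CPM), with Epcam, Cdh1 and Krt5 at no more than 2 counts, and the adipocyte sum of 30.8 to 52.8 CPM came from Pparg and Lpl. The part of these markers in the results was not tested.

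The 6 genes did not move as a group. Against control, Id3 rose 1.29-fold after 30 min in trypsin, and it was the only call among the 30 tests of 6 genes in 5 treatments. Id3 was also higher after 30 min than in each of the other 4 treatments. Id1 was lower after 30 min and after cold protease than after 30 s, and Atoh8 was lower in low trypsin than after 3 min. Id2, Smad6 and Smad7 were called in no comparison. A call means an adjusted p under 0.05 in edgeR's quasi-likelihood F test, with Benjamini-Hochberg adjustment over all 10075 genes. In bulk RNA, fewer cells with a transcript and less of it per cell cannot be told apart.

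Read against all tested genes, 1 of 6 members was called after 30 min, where 4.68% of tested genes were called (2.07% higher). After 30 s no member stood clear of control in all libraries (21.9% of all genes did). None of 6 was called after 30 s (background 6.94%), 3 min (3.96%), low trypsin (5.19%) or cold protease (0.665%). DESeq2 gave the same counts. At an unadjusted edgeR p under 0.05 the counts were 1 after 30 s (15.9% of all genes) and 0 after 3 min (12.8%). They were 2 in low trypsin (15.6%) and 1 in cold protease (8.78%). The median log2 change over the 6 genes lay between -0.12 (30 min) and 0.069 (3 min), while that over all genes was within 0.01 of 0 in all 5 comparisons. Among the 10 comparisons between treatments there were 8 calls in 60 tests, in Id1, Id3 and Atoh8. The Id3 calls that involve 30 min share the same 3 libraries. Where a member was called, the share of all genes was 1.85% (cold protease against 30 min) to 5.9% (cold protease against 30 s). Where no member was called, 1.94% (3 min against 30 s), 2.98% (low trypsin against 30 s), 3.7% (cold protease against 3 min) and 3.31% (cold protease against low trypsin) of all genes were. In the test of any difference among the 6 groups, Id3 (edgeR adjusted p = 1.54e-08) and Id1 (0.0196) were called, against 11.5% of all genes. Id2 (0.0892), Atoh8 (0.0957), Smad7 (0.632) and Smad6 (0.776) did not pass.

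**Figure D1:**
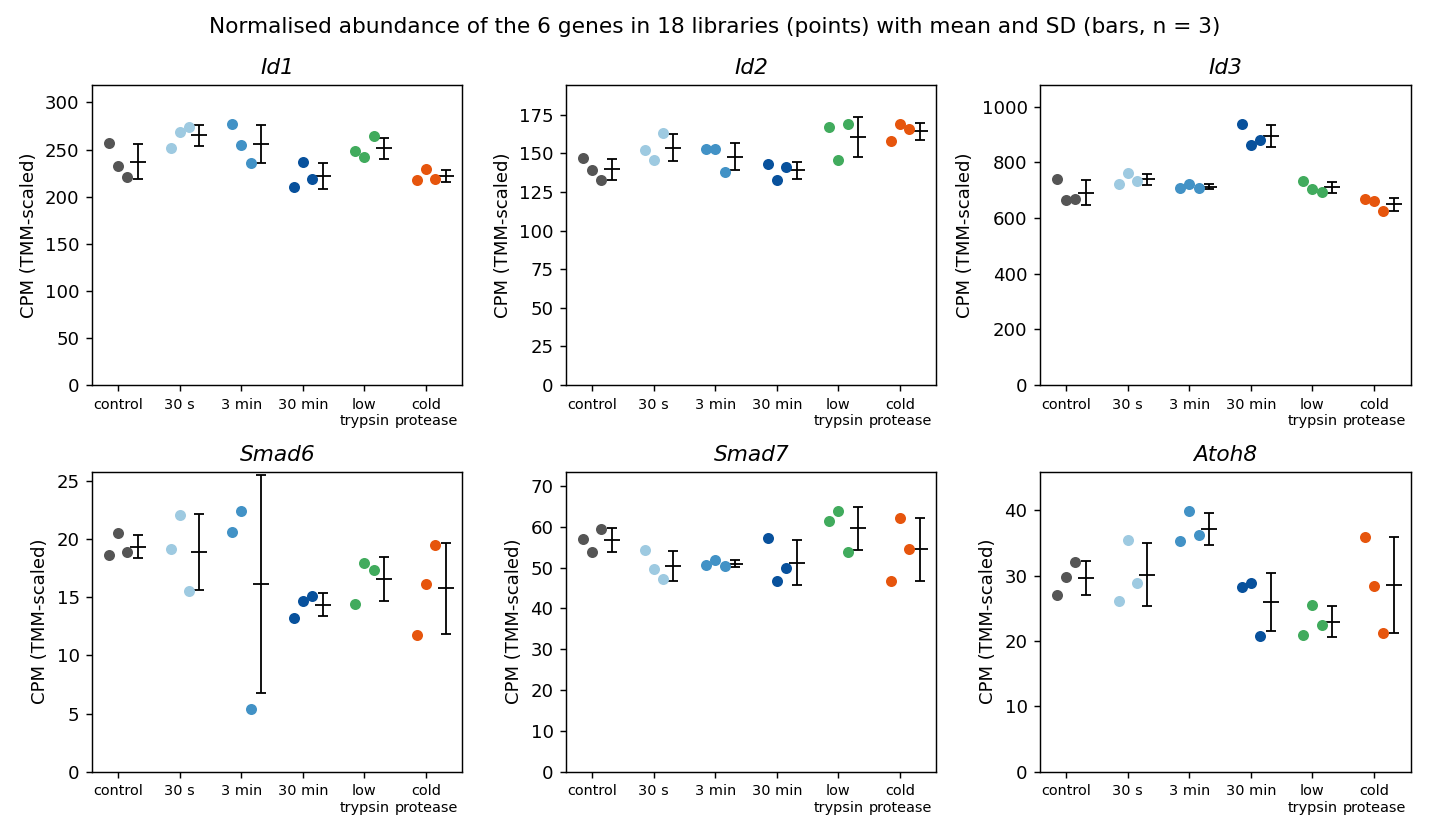
Normalised abundance of the 6 genes by group. The y axes give TMM-scaled CPM from 0, points are libraries in lot order, and bars are mean and SD of 3 libraries; the Id3 panel shows the 30 min libraries (861 to 938 CPM) above all others, and the Smad6 panel a single 3 min library at 5.36 CPM.

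Levels across the 18 libraries set the Id genes apart from the other members. Id3 averaged 733 CPM and was higher than 98.4% of tested genes. Id1 averaged 242 CPM, above 93.2% of tested genes, and Id2 151 CPM, above 87%. Smad7 (53.9 CPM), Atoh8 (29 CPM) and Smad6 (16.8 CPM) lay lower, Smad6 below most tested genes. Per kilobase of the principal isoform the order was the same, from 574 CPM per kb for Id3 and 259 for Id1 to 76.7 for Id2, 12.6 for Smad7, 12.3 for Atoh8 and 5.66 for Smad6. Since reads came mainly from 3′ ends, counts need not grow with length, and Smad7 and Atoh8 differed little on the scale per kb. Id4, the remaining gene of the Id family, had a count in 6 of 18 libraries, with 12 counts in all and at most 3 in a library, and was not tested.

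Id3 lies on chromosome 4 (GRCm38, 136143497 to 136145755, plus strand; ENSMUSG00000007872), in 3 exons and 1278 nt for the principal isoform. In control libraries it was at 742, 664 and 668 CPM, and after 30 min in trypsin at 938, 861 and 882 CPM. The lowest 30 min library stood above the highest of all 15 other libraries, which was 761 CPM. Between 30 min and control alone, 19.5% of all genes did not overlap. The share separated from all 15 libraries was not computed. The means were 692 ± 44 CPM in control and 894 ± 40 after 30 min (SD, n = 3), a log2 difference of 0.37 (SE 0.053; 95% interval 0.27 to 0.48; edgeR adjusted p = 9.15e-07). By p-value this was rank 62 of the 10075 genes in that comparison. Across 9 other settings of scaling, filter and test the difference was 0.36 to 0.42, and with each of the 6 libraries left out in turn it was 0.33 to 0.42 with an adjusted p of at most 6.94e-05.

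In the other treatments Id3 lay near the control level. It was at 721, 761 and 735 CPM after 30 s (log2 0.10, 95% interval -0.0086 to 0.20, edgeR adjusted p = 0.375) and at 710, 722 and 708 CPM after 3 min (0.047, adjusted p = 0.814). In low trypsin it was at 732, 706 and 694 CPM (0.042, adjusted p = 0.783). In cold protease the 3 libraries, at 667, 660 and 624 CPM, were the lowest group, with a log2 difference of -0.086 from control (95% interval -0.19 to 0.021; adjusted p = 0.703). The 30 s, 3 min and low trypsin libraries thus lay within or close to the range of control.

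The differences of Id3 between treatments followed from the same 3 libraries at 30 min, so these comparisons are not independent of each other or of the comparison with control. Id3 was higher after 30 min than after 30 s by 0.27 (log2; edgeR adjusted p = 0.00023; 4.93% of all genes called, 2.82% higher) and than after 3 min by 0.32 (1.32e-05; 4.03% called, 2.83% higher). It was lower in low trypsin than after 30 min by 0.33 (1.33e-05; 4.15% called, 1.35% lower). The difference was widest against cold protease, which was lower than 30 min by 0.46 (95% interval of the log2 difference -0.56 to -0.35; 1.79e-08; 1.85% of genes called, 0.754% lower), rank 9 by p-value in that comparison. In the same order, 20%, 17.7%, 18.4% and 15.4% of all genes did not overlap. None of these 4 calls was lost when any library of the pair was left out. Id3 was also lower in cold protease than after 30 s, by 0.18 (0.0226; 5.9% of genes called, 2.6% lower). That call ended without 30 s replicate 2 (adjusted p = 0.17) or 3 (0.0647), without cold protease replicate 2 (0.053) or 3 (0.15), and with no filter on low counts (0.0639).

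**Figure D2:**
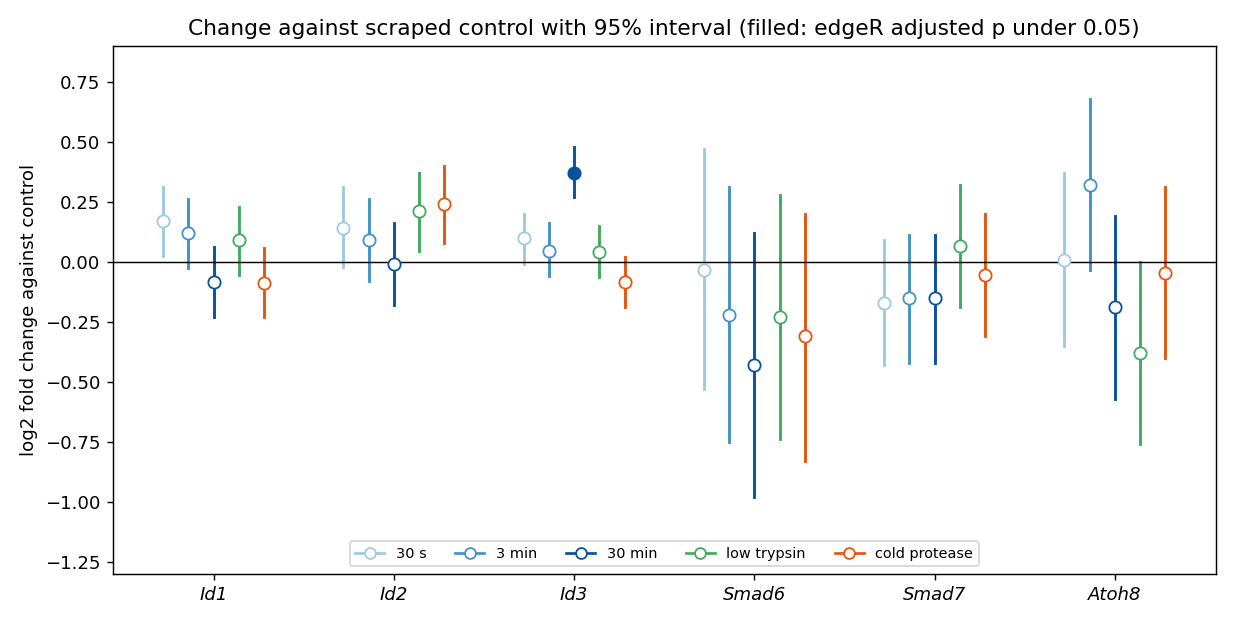
Change of each gene against scraped control. The y axis is the log2 fold change from edgeR, points are estimates for the 5 treatments, lines are 95% intervals without adjustment, and filled points have an adjusted p under 0.05; Id3 after 30 min, at 0.37, is the only filled point.

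Id1 lies on chromosome 2 (152736251 to 152737410, plus strand; ENSMUSG00000042745), a gene of 2 exons and 934 nt. Its CPM values were 257, 233 and 221 in control, 252, 269 and 274 after 30 s and 277, 255 and 236 after 3 min. They were 210, 237 and 219 after 30 min, 248, 242 and 264 in low trypsin and 218, 229 and 219 in cold protease. The 30 min and cold protease libraries all lay below those of 30 s, and every treated group overlapped control. In these 2 pairs of groups, 20% and 20.8% of all genes did not overlap. Against control the log2 differences ran from -0.087 in cold protease to 0.17 after 30 s (SE 0.071; 95% interval 0.025 to 0.31; edgeR adjusted p = 0.188), and none was called.

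In one added setting, in which a trend of each library on mRNA length was removed, Id1 was called higher than control after 30 s (log2 0.30, edgeR adjusted p = 0.00263) and after 3 min (0.29, 0.0131). Between treatments, Id1 was lower after 30 min than after 30 s by 0.25 (SE 0.072; adjusted p = 0.0243; 2.11% of all genes called lower) and lower in cold protease than after 30 s by 0.25 (SE 0.07; 0.0158). Each call ended in 4 of 6 leave-one-out fits, while the log2 difference stayed between -0.3 and -0.21 for 30 min and between -0.28 and -0.23 for cold protease. The first ended without 30 s replicate 2 (adjusted p = 0.105) or 3 (0.123) and without 30 min replicate 1 (0.172) or 3 (0.0987). The second ended without 30 s replicate 2 (0.0895) or 3 (0.101) and without cold protease replicate 1 (0.0722) or 3 (0.0639). The same difference from 3 min was -0.2 for 30 min (0.131) and -0.21 for cold protease (0.128), which did not pass.

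Id2 lies on chromosome 12 (25093799 to 25097140, minus strand; ENSMUSG00000020644), with 4 exons and 1969 nt. Its CPM values were 147, 139 and 133 in control, 152, 146 and 163 after 30 s, 153, 153 and 138 after 3 min and 143, 133 and 141 after 30 min. They were 167, 146 and 169 in low trypsin and 158, 169 and 166 in cold protease. Cold protease was the highest group by its mean, 165 ± 5.7 CPM (SD, n = 3), and did not overlap control at 140 ± 6.8. The log2 difference was 0.24 (95% interval 0.079 to 0.40), with an unadjusted edgeR p of 0.00438 and an adjusted p of 0.233; 14.1% of all genes did not overlap in that comparison. In low trypsin it was 0.21 (0.045 to 0.37; adjusted p = 0.149), and after 30 min -0.0092 (-0.18 to 0.16; adjusted p = 0.976). The 30 min libraries of Id2, unlike those of Id3, lay within the range of control.

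The ratio of 2 Id genes within a library does not depend on how libraries are scaled. Id3 had 2.89, 2.85 and 3.03 counts per Id1 count in control, and 4.47, 3.63 and 4.03 after 30 min, while the 15 libraries outside 30 min ranged from 2.57 to 3.05. Per Id2 count, Id3 had 6.27 to 6.58 counts after 30 min and 3.75 to 5.21 in the other 15. Both ratios stood above all other libraries after 30 min. In cold protease the ratio of Id1 to Id2 was 1.35 ± 0.034 against 1.69 ± 0.048 in control, and that of Id3 to Id2 was 3.95 ± 0.24 against 4.95 ± 0.14 (SD, n = 3). For these 4 differences the exact two-sided permutation p was 0.1, the smallest that 3 against 3 libraries allow, and 0.375 after adjustment over the 15 ratio comparisons with control. The ratio tests alone thus cannot pass the threshold.

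**Figure D3:**
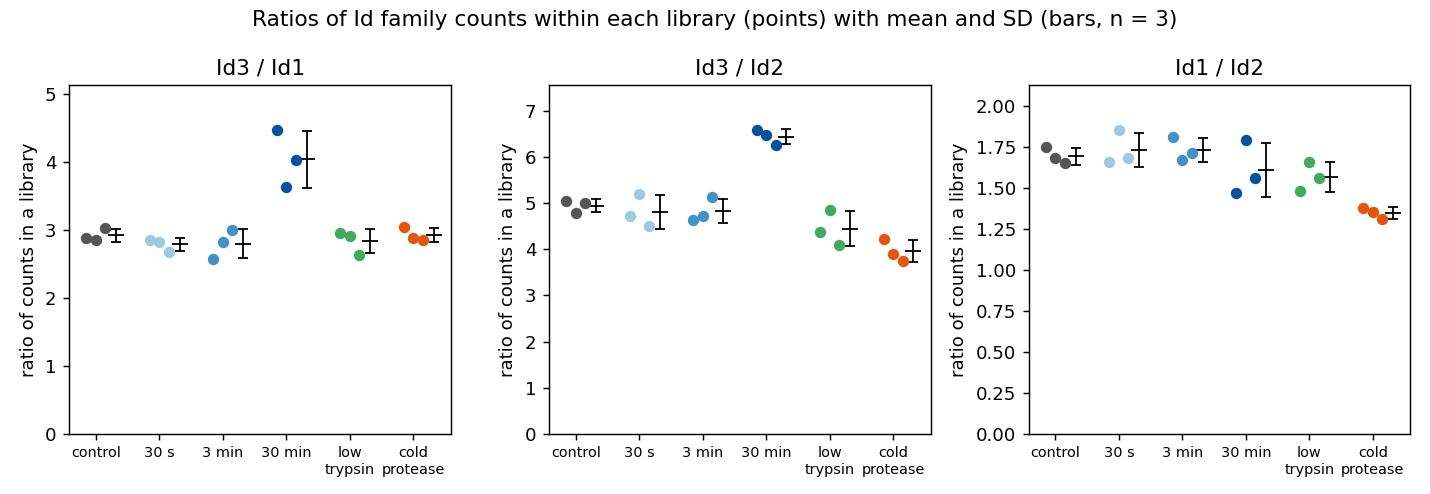
Ratios of Id counts within each library. The y axes are ratios of raw counts from 0, points are libraries, and bars are mean and SD of 3; both ratios with Id3 on top are highest after 30 min (3.63 to 4.47 and 6.27 to 6.58), and Id1 over Id2 is lowest in cold protease (1.31 to 1.38).

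The inhibitory Smads were called in no comparison. Smad6 lies on chromosome 9 (63953076 to 64022059, minus strand; ENSMUSG00000036867), with 4 exons and 2971 nt. It was at 18.6, 20.5 and 18.9 CPM in control, 19.1, 22 and 15.5 after 30 s and 20.6, 22.4 and 5.36 after 3 min. It was at 13.2, 14.7 and 15.1 CPM after 30 min, 14.4, 17.9 and 17.3 in low trypsin and 11.7, 16.1 and 19.5 in cold protease. The 30 min and low trypsin libraries were all below control, a separation that 19.5% and 19.6% of all genes showed in those comparisons. The log2 difference after 30 min was -0.43 (SE 0.27; 95% interval -0.98 to 0.12; edgeR adjusted p = 0.464), and the interval includes no change. Smad6 had 8 to 44 counts per library. The value of 8 counts was 3 min replicate 3: with it the difference after 3 min was -0.22 (adjusted p = 0.83) and without it 0.14 (0.898).

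Smad7 lies on chromosome 18 (75367529 to 75395935, plus strand; ENSMUSG00000025880), with 4 exons and 4278 nt. Its CPM values were 57.1, 53.7 and 59.4 in control, 54.3, 49.7 and 47.1 after 30 s, 50.6, 51.9 and 50.3 after 3 min and 57.2, 46.6 and 49.8 after 30 min. They were 61.3, 63.9 and 53.7 in low trypsin and 46.7, 62.2 and 54.5 in cold protease. The 3 min libraries lay just below control without overlap (17.6% of all genes did not overlap there), with a log2 difference of -0.15 (edgeR adjusted p = 0.725). After 30 s it was -0.17 (95% interval -0.43 to 0.093; adjusted p = 0.596) and after 30 min -0.15 (-0.42 to 0.11; 0.64). All 5 intervals for Smad7 against control include no change.

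Atoh8 lies on chromosome 6 (72206177 to 72235577, minus strand; ENSMUSG00000037621), with 3 exons and 2355 nt. It was at 27, 29.8 and 32.1 CPM in control, 26.1, 35.4 and 28.9 after 30 s and 35.3, 39.9 and 36.2 after 3 min. It was at 28.3, 28.8 and 20.8 CPM after 30 min, 20.9, 25.5 and 22.4 in low trypsin and 35.9, 28.4 and 21.2 in cold protease. The 3 min libraries were all above control and those of low trypsin all below, separations that 17.6% and 19.6% of all genes showed in those comparisons. Against control the log2 difference was 0.32 after 3 min (95% interval -0.036 to 0.68; edgeR adjusted p = 0.468) and -0.38 in low trypsin (-0.76 to -0.0025; unadjusted p 0.0475, adjusted p = 0.313), and neither was called.

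Low trypsin and 3 min share the 3 min at 37 °C and differ in whether trypsin stayed on the cells. Atoh8 was at 22.9 ± 2.3 CPM in low trypsin and 37.1 ± 2.4 after 3 min (SD, n = 3), lower by 0.70 on the log2 scale (log2 difference -0.70, SE 0.19; 95% interval -1.07 to -0.33; edgeR adjusted p = 0.0115). In that comparison 4.36% of all genes were called, 0.576% lower, and 17% did not overlap. The call ended without 3 min replicate 2 (adjusted p = 0.0937) or low trypsin replicate 1 (0.0799), and the difference stayed between -0.78 and -0.64 over the 6 libraries left out. None of the other 5 members was called between these groups. After 30 min Atoh8 was lower than after 3 min by 0.51 on the log2 scale, which did not pass (adjusted p = 0.132). Atoh8 had 33 to 77 counts per library.

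The order of group means differed from gene to gene. For Id3 it ran from cold protease (650 CPM) over control (692), low trypsin (711), 3 min (713) and 30 s (739) to 30 min (894), and 30 min was the only group called different from its neighbour in this order. For Id1 it ran from 30 min and cold protease (both 222 CPM) over control (237), low trypsin (251) and 3 min (256) to 30 s (265), with no neighbours called different. For Id2, 30 min (139 CPM) and control (140) were lowest and low trypsin (161) and cold protease (165) highest. For Atoh8, low trypsin (22.9 CPM) and 30 min (26) were lowest and 3 min (37.1) highest. No neighbours in the order of Id2 or of Atoh8 were called different either. The group means of Smad6 lay between 14.3 and 19.3 CPM and those of Smad7 between 50.4 and 59.6 CPM, with no pair of groups called.

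The other genes of the pathway were taken from lists of ligands, receptors, Smads, inhibitors, targets and helix-loop-helix partners. Of 105 listed genes besides the members, 64 were tested. The counts called higher and lower than control were 5 and 1 after 30 s (9.38% of the 64), 3 and 0 after 3 min (4.69%), and 6 and 0 after 30 min (9.38%). They were 7 and 1 in low trypsin (12.5%) and 0 and 0 in cold protease, where 0.665% of all genes were called. In DESeq2 the total was 4 in low trypsin, in place of 8, and 0 in cold protease. There 8 of the 64 had an unadjusted edgeR p under 0.05, as had 8.78% of all genes. The median log2 change of the 64 genes was between 0.028 and 0.055 in the 5 comparisons. These shares are to be read against those over all genes given above, and no test compared them.

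BMP ligands, receptors and Smads gave no call. Of 13 BMP and GDF ligands 1 was tested, Bmp4, at 8.98 ± 2 CPM in control (SD, n = 3) and 7.31 ± 1.3 after 30 min, with no call. None of the 8 tested BMP receptors and coreceptors, the 4 tested TGF-β and activin receptors or the 5 tested receptor-regulated and common Smads was called against control in any treatment. With Bmp4 these are 18 genes and 90 tests, of which 2 had an unadjusted edgeR p under 0.05 and 0 were called in DESeq2. Over all genes the share with such an unadjusted p was 8.78% (cold protease) to 16.4% (30 min). Bmpr1a, a type I BMP receptor, was at 69.9 ± 13 CPM in control and 66.4 ± 9.7 after 30 min. Acvr2a, a type II receptor, was at 7.96 ± 2.6 CPM in control and 15.4 ± 2 in cold protease (log2 0.92, SE 0.3; edgeR adjusted p = 0.197). Smad5, which carries the BMP signal, was at 61.5 ± 0.62 CPM in control and 46.3 ± 8.1 after 3 min (-0.40, SE 0.14; 0.118).

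Of the 6 tested ligands of the TGF-β and activin class, 1 rose after 30 min and 1 in low trypsin. Gdf15, a stress-induced secreted factor, rose from 33.9 ± 6 to 57.6 ± 3.1 CPM after 30 min (log2 0.78, SE 0.16; edgeR adjusted p = 0.000548; SD, n = 3). Inhba, the activin A subunit, rose from 112 ± 8.4 to 140 ± 17 CPM in low trypsin (0.33, SE 0.1; 0.0278), a call that ended in 4 of 6 leave-one-out fits (adjusted p up to 0.249, without low trypsin replicate 1) and in DESeq2 (0.0656). Of 6 tested extracellular inhibitors, Grem1, the BMP antagonist gremlin, fell by 0.32 on the log2 scale after 30 s, from 369 ± 18 to 296 ± 16 CPM (adjusted p = 0.000258). Its fall of 0.22 in low trypsin (log2 change -0.22, 0.0269) was lost in 4 of 6 leave-one-out fits (up to 0.208, without control replicate 3). The follistatin-like gene Fstl1 rose by 0.27 in low trypsin (0.0395), but by 0.11 without control replicate 1 (adjusted p = 0.508), and the DESeq2 value was 0.384.

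Intracellular inhibitors of Smad signalling held 13 tested genes, and Tob1 and Skil were the ones called. Tob1, an antiproliferative protein that represses Smad activity, was at 26.2 ± 3.8 CPM in control (SD, n = 3) and rose in 4 of 5 treatments. Its level was 42.6 ± 6.6 after 30 s, 42.7 ± 3.1 after 3 min, 45 ± 8.6 after 30 min and 49.8 ± 4.1 in low trypsin, with log2 changes of 0.68, 0.69, 0.77 and 0.92 (edgeR adjusted p = 0.00286, 0.00613, 0.00138 and 4.2e-05). The first of these calls ended without 30 s replicate 2 (0.0644) and the next without control replicate 1 (0.0535). In cold protease Tob1 was at 31.5 ± 2.2 CPM (0.26, adjusted p = 0.727). Skil, the corepressor SnoN and itself a TGF-β target, rose from 51.7 ± 3.6 to 82.2 ± 9.1 CPM after 30 s (0.67, SE 0.13; 0.000123) and to 73.1 ± 11 after 3 min (0.51; 0.0128; up to 0.216 without 3 min replicate 2).

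Targets of the pathway outside the 6 genes had their own patterns. The median log2 change of the 9 tested further BMP targets was 0.41 after 30 s, 0.34 after 3 min and 0.15 after 30 min. In low trypsin it was 0.081 and in cold protease 0.06, and no test compared these medians with all genes. Of these 9 targets, 1 was called in each of 30 s, 3 min and low trypsin, each time Junb, an AP-1 factor. Junb rose from 198 ± 2.9 CPM by 0.33 (edgeR adjusted p = 0.00329), 0.36 (0.00261) and 0.35 (0.0026) on the log2 scale, and the 30 s call ended without 30 s replicate 1 (0.139). After 30 min, when Id3 was highest, Junb was at 204 ± 29 CPM (0.033, adjusted p = 0.905; SD, n = 3). Dlx2, a homeobox BMP target, was at 10.5 ± 1.2 CPM in control and 4.75 ± 0.49 after 30 min (log2 -1.14, SE 0.39; adjusted p = 0.0622), and Heyl was at 2.57 ± 1.2 and 6.51 ± 3.5 (1.38, SE 0.55; 0.13), neither of them called. Gata3, at 29.7 ± 5.4 CPM in control, was not called either. Its log2 change was 0.41 after 30 s (edgeR adjusted p = 0.184), 0.38 after 3 min (0.365) and 0.50 after 30 min (0.094). In low trypsin it was 0.20 (0.664) and in cold protease 0.09 (0.94).

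Of 10 tested TGF-β targets, 2 were called after 30 s, 1 after 3 min, 3 after 30 min, 2 in low trypsin and 0 in cold protease, all of them higher, Skil among them. Ccn2, a matricellular protein, rose from 82.2 ± 13 CPM to 139 ± 4.6 after 30 s (log2 0.75, SE 0.11; edgeR adjusted p = 2.4e-07) and 169 ± 17 in low trypsin (1.03, SE 0.1; 6.66e-11; SD, n = 3). It was at 88.5 ± 14 CPM after 30 min (0.087, adjusted p = 0.789). Bhlhe40, a transcriptional repressor, rose by 0.47 after 30 min (0.0457) and 0.46 in low trypsin (0.0448), calls that ended in 5 and 4 of 6 leave-one-out fits (up to 0.241 without control replicate 3 and 0.291 without low trypsin replicate 3) and in DESeq2 (0.0905 and 0.116). The cell cycle inhibitor Cdkn1a rose by 0.27 after 30 min (0.0168). That call ended in 3 of 6 leave-one-out fits, with a log2 change of 0.17 (adjusted p = 0.271) without 30 min replicate 2. The third call after 30 min was Col1a1, a collagen chain, named after its values were seen: it rose from 10.2 ± 0.74 to 20 ± 1.9 CPM (0.97, SE 0.27; 0.0175), and the call ended in 4 of 6 leave-one-out fits (up to 0.0819, leaving out control replicate 3).

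Among helix-loop-helix partners and myogenic factors 6 of 7 genes were tested, and Myf5, an early myogenic factor, was the one called. It rose from 72.1 ± 19 CPM to 116 ± 9.2 after 30 s (log2 0.71, SE 0.12; edgeR adjusted p = 1.4e-05) and 123 ± 14 after 30 min (0.79, SE 0.12; 4.08e-06; SD, n = 3). Its call in low trypsin (0.39; 0.0481) ended in 4 of 6 leave-one-out fits and in DESeq2 (0.0991). The log2 change was 0.24 without control replicate 3 (adjusted p = 0.418) and 0.60 without control replicate 1 (0.00107). The E proteins that Id factors bind were not called: Tcf3 was at 112 ± 5 CPM in control and 103 ± 14 after 30 min (-0.14, adjusted p = 0.545), and Tcf4 at 192 ± 8.2 and 217 ± 23 (0.17, 0.247). Myod1 was at 50.6 ± 5.3 CPM in control and 58.8 ± 7 after 30 min (0.23, 0.409).

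**Figure D4:**
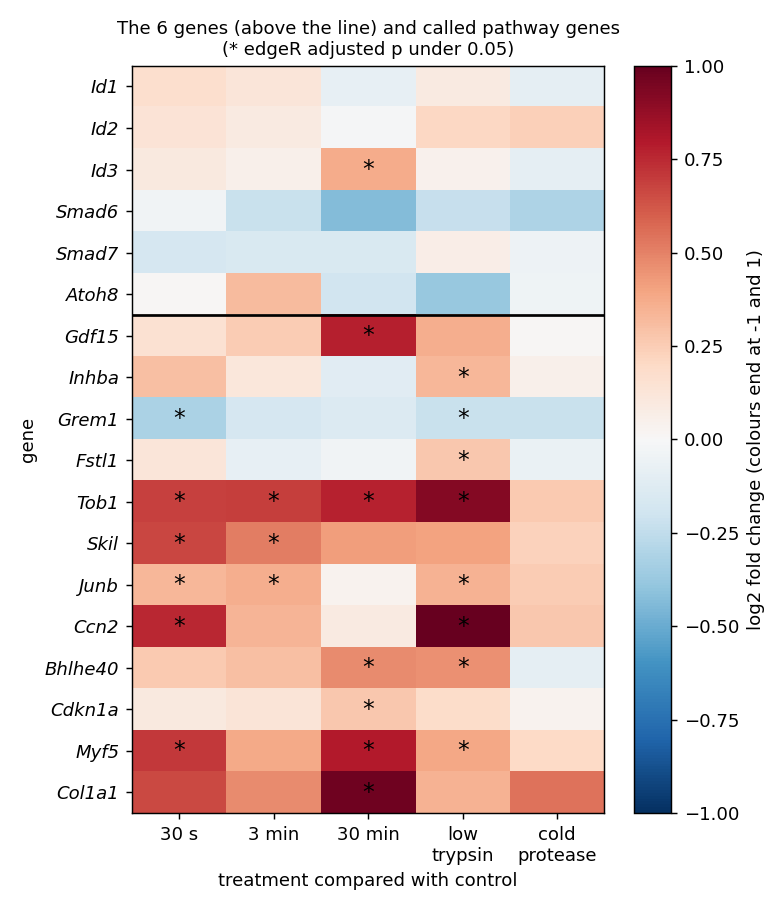
Log2 fold change against control of the 6 genes (above the line) and of the pathway genes called in at least 1 treatment. Columns are the 5 treatments, colours end at -1 and 1, and a star marks an edgeR adjusted p under 0.05; Id3 is starred after 30 min alone, Tob1 in 4 treatments, and no gene is starred in cold protease.

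The genes most alike to each member were found by Pearson's r of log2 CPM over the 18 libraries, among 8340 genes averaging 10 CPM or more, as a description. For Id3 they were Hes1 (r = 0.909), Ddit4 (0.886) and Klf6 (0.826). Hes1, a helix-loop-helix repressor known as a Notch target, rose from 52.8 to 320 CPM after 30 min (log2 2.58, edgeR adjusted p = 1.82e-26). Ddit4, a stress-induced inhibitor of mTORC1, rose from 61.9 to 113 CPM (0.87, 5.36e-07), and Klf6, a zinc finger factor, from 194 to 268 CPM (0.46, 3.33e-06). Over the 15 libraries outside 30 min the values of r were 0.537, 0.498 and 0.426, so the likeness rested mainly on the 3 libraries at 30 min.

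The most alike genes were Atat1 (0.827), Prdx3 (0.818) and Katnal1 (0.814) for Id1, and Mustn1 (0.758), Wdhd1 (0.74) and Dnajb6 (0.725) for Id2. For Smad6 they were Zfp777 (0.774), Snx15 (0.773) and Supt6 (0.767), for Smad7 Pxmp4 (0.761), Esyt2 (0.759) and Mrpl36 (0.759), and for Atoh8 Gpd2 (0.812), Tomm20 (0.77) and Mid1ip1 (0.735). None of these 15 genes was called after 30 min against control, and no gene stood in the list of more than 1 member. Prdx3, a mitochondrial peroxidase, followed the order of Id1 with 145 CPM after 30 s and 143 after 3 min against 114 after 30 min and 113 in cold protease. Outside the 30 min libraries its r with Id1 was 0.801. The highest of many correlations is high by choice, and these values carry no test.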

How the data were processed

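Per the submitters' processing notes, HISAT2 2.1.0, featureCounts 2.0.1, UMI-tools 1.0.1, Trim Galore 0.6.6, cutadapt 2.6, DESeq2 1.28.1 and the build GRCm38 were used; the role and settings of each, strand included, are not given in the sources used here. Raw gene counts, deposited by the authors as whole numbers, entered every test. Their normalized tables were not used here. Genes passing edgeR's filterByExpr by group (10075) held 99.4% to 99.5% of each library's counts. All 18 libraries were fitted once in edgeR 4.0.16 (R 4.3.3) with TMM scaling and a quasi-likelihood F test, checked on simulated counts. Benjamini-Hochberg adjustment ran over all tested genes of a comparison. Standard errors and 95% intervals are Wald values with the quasi-dispersion, unadjusted. Within groups, all 18 pairs of libraries differed beyond sampling noise (chi-square 1.43 to 2.64 per degree of freedom). Gene models came from GENCODE M21, where no member overlapped another gene or shared 45 nt at 95% identity with one. Promoter windows came from RefSeq (GRCm38.p6).

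The 6 members were always named. From each of 11 pathway lists, up to 4 tested genes with the smallest p over all 6 groups could be named, and for each member the 3 most correlated genes. Members and lists were chosen with earlier results of these data known. Alternatives were DESeq2 1.42.0, other scalings and filters, a lot block, fits of 2 groups, each library left out, and removal of a trend on mRNA length.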

Additional observations from a re-analysis of the deposited data

How the results depend on the processing

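Against control the number of the 6 genes called stayed at 1 after 30 min and 0 in low trypsin and cold protease under every alternative run. With the trend on mRNA length removed, a choice made after seeing the data that used lengths of 10051 of the 10075 genes, it was 1 in place of 0 after 30 s and after 3 min, in both cases Id1; the cause was not tested. The 8 calls between treatments became 7 with no filter on low counts, and 10 with library totals only or with the length trend removed. With single libraries left out they ranged from 5 (without 30 s replicate 2 or 3) to 8. The 2 genes called among the 6 groups then ranged from 1 (without 30 s replicate 2 or 3, or 30 min replicate 1 or 3) to 3. Some uncalled differences near 0 changed sign. With library totals as the only scaling, Smad6 after 30 s was at 0.02 and Id2 after 30 min at 0.019. With the length trend removed, Atoh8 after 30 s was at -0.0073 and Id2 after 30 min at 0.005. With single libraries left out, the ranges across 0 were -0.16 to 0.079 (Smad6, 30 s), -0.13 to 0.1 (Atoh8, 30 s), -0.54 to 0.14 (Smad6, 3 min), -0.043 to 0.024 (Id2, 30 min), -0.17 to 0.05 (Smad7, cold protease) and -0.24 to 0.1 (Atoh8, cold protease). No scaling moved the median of all genes by over 0.1. Over all genes, the 472 calls after 30 min became 304 without control replicate 2. The 67 in cold protease became 41 without control replicate 2, 43 without control replicate 3, 35 without cold protease replicate 1 and 39 without replicate 2. The 8 pathway genes called in low trypsin were 4 in DESeq2. Smad6 had the fewest counts of the 6 genes, 8 to 44 per library.

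The lot numbers showed no clear pairing of the libraries. Deviations from the group means correlated between -0.0605 and 0.0706 in 45 pairs of the same lot (median 0.00456). In 90 pairs of other lots they correlated between -0.0603 and 0.0767 (median -0.00155). Of the 18 libraries 9 correlated best with their own lot, a count that was not tested. With the lot as a replicate block, the members called were 1 after 30 min, 0 in the other 4 comparisons with control, 8 between treatments and 2 among the 6 groups. Under the block the adjusted p of Bhlhe40 was 0.0525 (30 min) and 0.0547 (low trypsin), and that of Myf5 0.0529 (low trypsin).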
